A study of Mus musculus with 6 samples.

Results

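The genes described here are those of oxidative phosphorylation (OXPHOS) in SMART-seq libraries of sorted neonatal lung group 2 innate lymphoid cells (ILC2s). They were chosen by symbol, as every gene whose name begins with Nduf, Uqcr, Atp5, mt- or Cox followed by 4 to 8, together with Sdha, Sdhb, Sdhc and Sdhd. This gave 149 of the 55394 genes in the files. Of these, 112 were nuclear and 37 were encoded by the mitochondrial genome. The nuclear genes comprised 86 entries for subunits (36 of complex I, 4 of complex II, 8 of complex III, 20 of complex IV and 18 of complex V), 8 assembly factors of complex I and 18 entries for pseudogenes and other copies. The mitochondrially encoded genes comprised 13 protein genes, 2 ribosomal RNAs and 22 transfer RNAs.

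Oxidative phosphorylation couples the oxidation of nutrients to ATP synthesis at the inner mitochondrial membrane. Complexes I and II feed electrons from NADH and succinate to ubiquinone, complex III passes them to cytochrome c, complex IV hands them to oxygen, and complex V, the ATP synthase, uses the proton gradient that complexes I, III and IV build. Complex II is wholly nuclear encoded, whereas the other complexes join nuclear subunits with subunits translated inside the organelle from long mitochondrial transcripts that are cut apart at their transfer RNAs. Lymphocytes draw on this machinery at rest and when they are activated.

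Wild-type C57BL/6 dams received a cocktail of ampicillin, metronidazole, neomycin and vancomycin (Abx) in their drinking water between gestation days 10 and 14, or were controls (Con), and lung ILC2s of their offspring were sorted as CD45+Lin-CD90.2+CD25+ cells, where Lin- means without the lineage markers of T, B, NK, myeloid and erythroid cells. Each group had 3 libraries of 1000 cells, made with an oligo-dT kit that does not mark strand. The labels do not say whether the libraries of a group came from separate litters, and the number, age and sex of the pups per library were not given in the labels, so the p-values measure only the spread between these libraries. Values are FPKM, fragments per kilobase of transcript scaled to the mapped fragments of the library, as deposited.

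Total FPKM per library was between 420941 and 489262, with 7074 to 9203 genes at 1 FPKM or more and 126 to 135 of the OXPHOS genes at that level. The read depth behind each value is unknown. The summed FPKM of 11 ILC2 markers was 1940 to 2340 in Con and 1670 to 2220 in Abx, with Gata3 between 33.9 and 97.5 FPKM. Il1rl1, which encodes the IL-33 receptor, was at 0.01 to 2.94 FPKM, with every Abx library below every Con library, and was not tested. Of the 10 ILC2 markers tested, 6 were higher and 4 lower in Abx. Only Areg had an unadjusted limma p under 0.05. Its highest Abx library (393 FPKM) lay below its lowest Con library (657 FPKM). The log2 difference of Areg was -1.4 ± 0.27 (SE), with a limma adjusted p of 0.0911. Some markers of other cell types differed between the groups too. The sum of 9 B cell markers was 564 to 722 in Con and 1330 to 1590 in Abx, and 1 of the 8 tested, H2-Ab1, was called (log2 difference 2.80 ± 0.29 (SE), adjusted p = 0.0448). Of these 8, 7 were higher and 1, Cd79b, was lower in Abx. The sum of 9 T cell markers was 126 to 154 in Con and 280.0 to 317 in Abx. Of the 5 tested, 4 were higher and 1, Trac, was lower (-0.19 ± 1.19 (SE)). Only Cd3d and Cd8b1 had an unadjusted limma p under 0.05, and Cd4, Cd8a, Cd5 and Cd6 were not tested. The sum of 5 NK cell markers was 0 to 21.7 in Con and 215 to 224 in Abx, almost wholly from Gzma, with Klrb1c and Prf1 listed at 0 in all 6 libraries. The sums of myeloid markers (130.0 to 409 in Con, 171 to 484 in Abx), of epithelial, endothelial and fibroblast markers (31.6 to 1160 in Con, 69.1 to 148 in Abx) and of erythroid markers (6420 to 14800 in Con, 3170 to 8660 in Abx) overlapped. Xist, the transcript of the inactive X chromosome, was at 3.78, 4.38 and 5.09 FPKM in Con and listed at 0 in all 3 Abx libraries. The part of these differences in the OXPHOS values was not tested. In sorted bulk samples, fewer cells with a transcript and less of it per cell cannot be told apart.

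The first question was whether OXPHOS transcripts differed between ILC2s of the Abx and Con groups. Of the 149 genes, 136 passed the filter of at least 1 FPKM in at least 3 libraries and were tested on log2(FPKM + 1) with limma, within a fit over all 8718 genes that passed. None of the 136 was called at an adjusted p under 0.05 and more than a 2-fold difference, a rule that called 0.0574% of all genes tested. The smallest adjusted p among them was 0.0911, and 26 of the 136 had an unadjusted p under 0.05. Of these, 21 were higher in Abx (15.4% of the OXPHOS genes tested, against 4.74% of all genes tested) and 5 were lower (3.68%, against 6.25% of all genes tested). The 3 Abx values lay wholly above those of Con in 31 genes (22.8%, against 8.49% of all genes tested) and wholly below in 8 genes (5.88%, against 8.73%). The genes were chosen with earlier results of these data known, so these shares are descriptions. The 13 genes not tested were Cox4i2, Cox6a2, Cox7b2, Cox8b, Cox8c, Ndufa4l2, mt-Ts2, a second identifier for Atp5o and 5 pseudogene entries, and 8 of these were listed at 0 in all libraries.

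Of the 136 OXPHOS genes tested, 106 were higher and 30 lower in Abx. The median log2 difference, Abx minus Con, was 0.31 over the 79 nuclear subunits tested and 0.33 over the 13 mitochondrial protein genes, against -0.06 over all genes tested. Without Abx 2 the median of the mitochondrial protein genes was 0.17. Of the 79 nuclear subunits, 63 were higher and 16 lower in Abx. The median over the nuclear subunits, measured in each library as a deviation from the Con mean of each gene, came to 0.11, -0.07 and -0.06 in the Con libraries and to 0.21, 0.58 and 0.33 in the Abx libraries, so Abx 2 stood highest and Abx 1 was nearest to Con. Many OXPHOS genes are abundant, and the difference of abundant genes as a whole was above 0. Among the 1282 genes with a mean of at least 50 FPKM, a filter chosen after seeing the data, the median log2 difference was 0.12, and 12.1% were higher in Abx at an unadjusted p under 0.05, against 16 of the 90 OXPHOS genes at that level (17.8%).

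**Figure D1:**
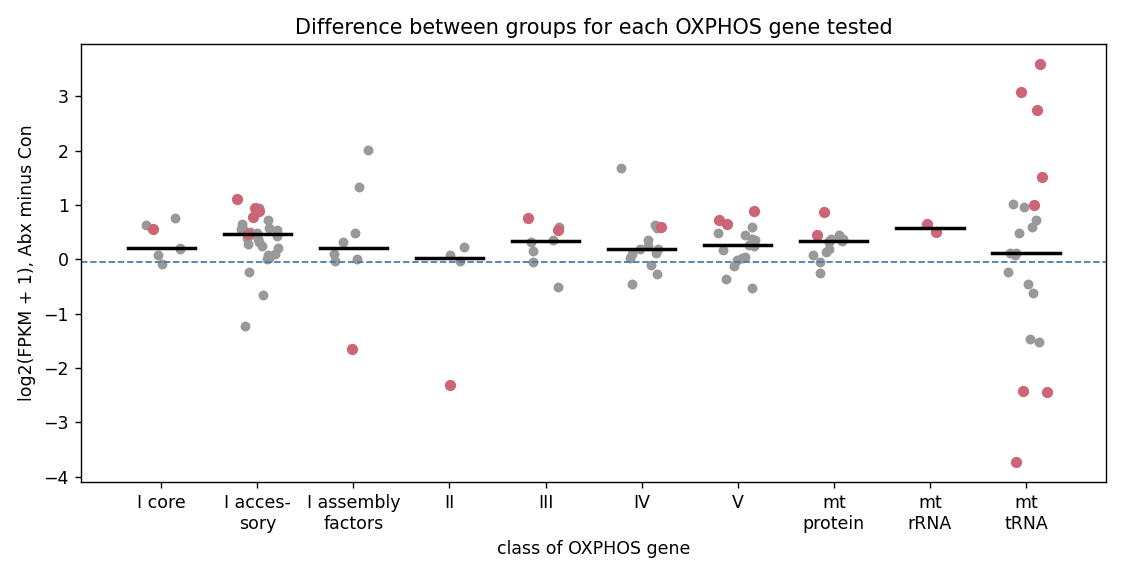
Log2 difference of FPKM + 1 between Abx and Con (vertical axis) for each of the OXPHOS genes tested, by class, without the pseudogene entries. Points are genes, red points have an unadjusted p under 0.05, black bars are class medians and the dashed line is the median over all genes tested (-0.06). Class medians lie between 0.02 for complex II and 0.58 for the mitochondrial rRNAs, and the transfer RNAs spread from -3.73 to 3.59.

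The summed FPKM of the nuclear subunits separated complexes I, III and V from complexes II and IV. Nuclear complex I subunits summed to 4337, 3719 and 4095 FPKM in Con, against 5193, 6415 and 5087 FPKM in Abx. Those of complex III summed to 1594, 1626 and 1635 FPKM in Con, against 2060.0, 2110.0 and 2026 FPKM in Abx. Those of complex V summed to 2663, 2697 and 2578 FPKM in Con, against 3143, 3517 and 2909 FPKM in Abx. For the nuclear subunits of these 3 complexes every Abx library lay above every Con library, with ratios of the group means of 1.37, 1.28 and 1.21. Complex II summed to 376 to 589 FPKM in Con, against 375 to 597 FPKM in Abx. Nuclear complex IV subunits summed to 2783 to 3472 FPKM in Con, against 2958 to 4385 FPKM in Abx, and the groups overlapped in both. The nuclear subunits of complexes I, III and V separated the groups as shares of total FPKM too, at 0.879% to 0.973%, 0.355% to 0.388% and 0.592% to 0.637% in Con and 1.16% to 1.31%, 0.431% to 0.469% and 0.674% to 0.719% in Abx. The nuclear subunits of all complexes together took 2.82%, 2.71% and 2.72% in Con and 3.12%, 3.48% and 3.15% in Abx.

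**Figure D2:**
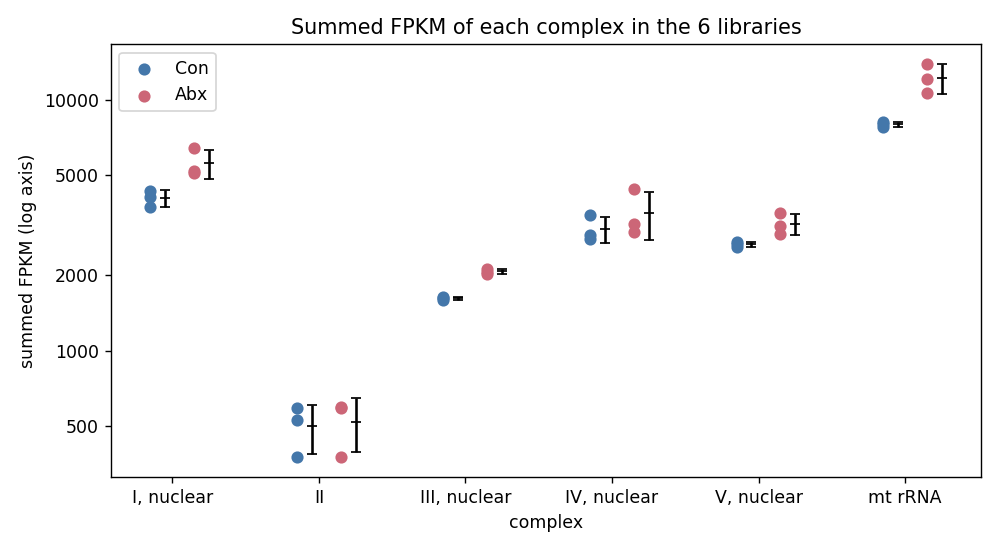
Summed FPKM (log axis) of the nuclear subunits of each complex and of the 2 mitochondrial rRNAs in the 6 libraries. Points are libraries, and the bar beside each group is its mean ± SD of 3. The Abx points lie above all Con points for complexes I, III and V and for the rRNAs (1.53 times the Con mean), and overlap them for complexes II and IV.

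Complex I, the NADH dehydrogenase, held the nuclear subunit with the smallest p. Ndufa11, an accessory subunit of its membrane arm (ENSMUSG00000002379, chr17:56717767-56722141 in GRCm38), was at 143, 153 and 165 FPKM in Abx libraries 1 to 3, compared with 79.8, 67.2 and 66.3 FPKM in the 3 Con libraries. The groups did not overlap, and the 3 values of each group were close together. The log2 difference was 1.11 ± 0.23 (SE), with an adjusted p of 0.0967, which missed the threshold over all 8718 genes. With only the genes at a mean of at least 50 FPKM in the fit, the same difference had an adjusted p of 0.0350 and was the only OXPHOS call under any setting run; over all settings its adjusted p ran from 0.0350 to 0.296. Of the 29 accessory subunits, all tested, 25 were higher and 4 lower in Abx, with a median log2 difference of 0.46. The accessory subunits Ndufb6, Ndufa8, Ndufa6 and Ndufb11 were also higher at an unadjusted p under 0.05.

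Ndufb6 measured 148, 149 and 164 FPKM in the Con group, against 219, 374 and 278 FPKM in the Abx group (log2 difference 0.88 ± 0.25 (SE), adjusted p = 0.183). Ndufa8 had 148, 106 and 132 FPKM in control libraries and 302, 214 and 166 FPKM in those of the Abx group (0.78 ± 0.28, adjusted p = 0.325). Ndufa6 was at 21.6, 32.9 and 36 FPKM among Con libraries, and the Abx values were 53.9, 78.0 and 46.2 FPKM (0.95 ± 0.36, adjusted p = 0.365). None of these genes overlapped between the groups, and the highest Abx library was Abx 2 for Ndufb6 and Ndufa6 and Abx 1 for Ndufa8. Ndufb11, which is X-linked, was at 381, 396 and 364 FPKM in Abx libraries 1 to 3, compared with 280.1, 320.2 and 235 FPKM in the 3 Con libraries (0.46 ± 0.19, adjusted p = 0.443). It was 1 of 3 X-linked OXPHOS genes, and Ndufa1 (0.47 ± 0.23) and Cox7b (0.02 ± 0.32) were the others. The methods name both sexes without giving that of each library, and Xist differed between the groups as stated above.

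The accessory subunit with the largest difference downward was Ndufa9, at 135, 118 and 132 FPKM in the Con group, against 16.1, 116 and 83.8 FPKM in the Abx group. All Abx values lay below Con, but Abx 2 nearly reached it and Abx 1 stood far below (log2 difference -1.22 ± 0.66, adjusted p = 0.575). Without Abx 1 the difference was -0.37. Ndufs4 had the next largest, with overlapping groups (-0.65 ± 0.60), and the most abundant accessory subunit, Ndufa2, was at 295 to 454 FPKM in Con and 418 to 684 in Abx (0.50 ± 0.26). Among the 7 core subunits, which carry the flavin and the iron-sulfur clusters, Ndufs8 had 226, 143 and 168 FPKM in control libraries and 272, 260.0 and 247 FPKM in those of the Abx group (0.56 ± 0.23, adjusted p = 0.424), and no other core subunit was under an unadjusted p of 0.05. Ndufs1, which holds several of the clusters, was the least abundant of the core subunits, at 4 to 19.7 FPKM in Con, against 6.61 to 9.94 FPKM in Abx.

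The assembly factors of complex I were low and variable. The median of their mean levels was 13.2 FPKM, against 99.2 FPKM for the subunits of complex I, and the median SE of their log2 differences was 1.04, against 0.34. Ndufaf3, an early assembly factor, was at 43.1, 19.9 and 38.3 FPKM among Con libraries, and the Abx values were 15.3, 5.10 and 10.5 FPKM. All Abx values were below all Con values, with a log2 difference of -1.66 ± 0.55 and an adjusted p of 0.275. Ndufaf8, the most abundant, was at 18.6 to 54.9 FPKM in Con and 22.9 to 106 in Abx. Ndufaf6 was listed at 0 in Con 3, Ndufaf5 in Con 1 and Ndufaf1 in Con 2, and the groups overlapped in these 4.

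Complex II, succinate dehydrogenase, showed no common direction. The flavoprotein subunit Sdha (59.2 to 84.0 FPKM in Con, 56.6 to 121 in Abx), the iron-sulfur subunit Sdhb (117 to 225 in Con, 138 to 227 in Abx) and the membrane anchor Sdhd (172 to 311 in Con, 134 to 339 in Abx) overlapped between the groups, with log2 differences of 0.22 ± 0.34, 0.07 ± 0.32 and -0.04 ± 0.40. The other membrane anchor, Sdhc (ENSMUSG00000058076, chr1:171127165-171150603 in GRCm38), was at 0.42, 0.02 and 0.06 FPKM in Abx libraries 1 to 3, compared with 2.51, 11.3 and 3.32 FPKM in the 3 Con libraries. The groups did not overlap, and the log2 difference was -2.31 ± 0.65 with an adjusted p of 0.184. In every library Sdhc lay far below the other subunits of its complex, although all belong to the same enzyme.

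Complex III, which oxidizes ubiquinol, was higher in 6 of the 8 nuclear subunits listed here. The core protein Uqcrc1 measured 128, 133 and 126 FPKM in the Con group, against 179.6, 193 and 193 FPKM in the Abx group, without overlap (log2 difference 0.54 ± 0.20, adjusted p = 0.326). The small subunit Uqcrq had 106, 78.5 and 83.8 FPKM in control libraries and 192, 178 and 98.0 FPKM in those of the Abx group (0.75 ± 0.32, adjusted p = 0.447), where Abx 3 fell within the Con range. Uqcr10, the most abundant of these nuclear subunits, was at 568, 627 and 683 FPKM among Con libraries, and the Abx values were 859.6, 686 and 793 FPKM (0.31 ± 0.18, adjusted p = 0.593). The Rieske iron-sulfur protein Uqcrfs1 went the other way, at 106, 96 and 55.5 FPKM in Abx libraries 1 to 3, compared with 127, 120.3 and 111 FPKM in the 3 Con libraries, also without overlap (-0.52 ± 0.30, adjusted p = 0.609).

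Complex IV, cytochrome c oxidase, has subunits that come as a common and a tissue-restricted isoform, and the libraries held the common ones. Cox6a1 was at 585 to 1133 FPKM, Cox6b1 at 490.0 to 771, Cox4i1 at 305 to 440.1, Cox7a2 at 212 to 428 and Cox8a at 228 to 614 over the 6 libraries. Of the restricted forms, the muscle isoforms Cox6a2 and Cox8b, the testis-type isoforms Cox7b2 and Cox8c and the hypoxia-linked Ndufa4l2 were listed at 0 in every library. Cox4i2, the lung and hypoxia form, was at 5.05 FPKM in Con 2 and listed at 0 elsewhere (exact two-sided permutation p = 1.0, where 0.1 is the smallest that 3 against 3 allows). The muscle isoform Cox7a1 was above 0 in Con 1 (2.37 FPKM), Con 3 (7.95) and Abx 2 (23.5), and the testis isoform Cox6b2 in Con 1 (7.71) and the Abx libraries (0.14, 6.17 and 34.4).

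Between the groups, Ndufa4, once counted with complex I and now placed in complex IV, was the only nuclear complex IV gene under an unadjusted p of 0.05. It measured 148, 104 and 98.5 FPKM in the Con group, against 174, 161 and 186 FPKM in the Abx group, without overlap (log2 difference 0.59 ± 0.24, adjusted p = 0.424). Cox5a, which sits on the matrix side, also did not overlap, at 94.8, 115 and 75.6 FPKM in control libraries and 124, 163 and 135 FPKM in those of the Abx group (0.57 ± 0.26, adjusted p = 0.474). Cox8a was at 614 and 513 FPKM in Abx 1 and Abx 2 but at 228 FPKM in Abx 3, below the 251 to 300.4 FPKM of Con. Cox4i1 and Cox7a2l, the latter a factor of supercomplex assembly, had negative log2 differences of -0.27 ± 0.19 and -0.46 ± 0.51.

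In complex V, 3 subunits were higher at an unadjusted p under 0.05, all of the stalk or the membrane part. Atp5o, the subunit that fastens the stator to the catalytic head (ENSMUSG00000022956, chr16:91925214-91931687 in GRCm38), was at 139, 134 and 156 FPKM among Con libraries, and the Abx values were 218, 252 and 239 FPKM (log2 difference 0.72 ± 0.20, adjusted p = 0.176). Atp5j, a stator subunit, was at 142, 177 and 113 FPKM in Abx libraries 1 to 3, compared with 67.1, 77.4 and 84.1 FPKM in the 3 Con libraries (0.89 ± 0.26, adjusted p = 0.201). Atp5k, the membrane subunit e, measured 192, 159 and 168 FPKM in the Con group, against 265, 329 and 228 FPKM in the Abx group (0.65 ± 0.22, adjusted p = 0.287). None of these overlapped between the groups.

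The alpha and beta subunits of the catalytic head had small log2 differences. Atp5b, the beta subunit, had 306, 419 and 385 FPKM in control libraries and 456, 351 and 305 FPKM in those of the Abx group (-0.01 ± 0.23), and Atp5a1, the alpha subunit, had a log2 difference of 0.17 ± 0.25. The genes for the c ring, whose proteins are identical after import, were expressed in the order Atp5g3 (means of 176 FPKM in Con and 225 in Abx), Atp5g2 (64.3 and 90.4) and Atp5g1 (42.7 and 60). Atp5g3 was highest in every library, while the ranges of Atp5g2 and Atp5g1 over the libraries overlapped. The largest negative differences were those of the stator subunit Atp5pb (-0.53 ± 0.43), at 35.4 FPKM in Abx 3 and 89.3 to 119.8 elsewhere, and of Atp5md (-0.36 ± 0.37).

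**Figure D3:**
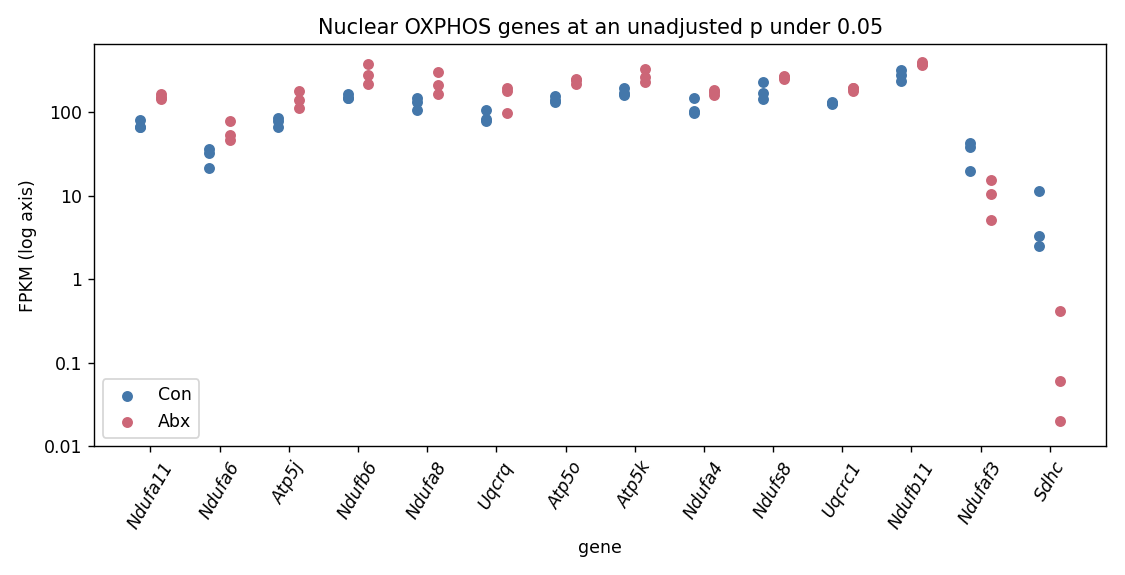
FPKM (log axis) of the nuclear OXPHOS genes with an unadjusted p under 0.05, in 3 Con (blue) and 3 Abx (red) libraries, ordered by their log2 difference. Of the 14 genes, 12 were higher and Ndufaf3 and Sdhc lower in Abx, and only Uqcrq had overlapping groups.

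The promoters of OXPHOS genes are known targets of the factors NRF1 and GABP (an ETS factor). RefSeq windows of 300 bases (250 before and 50 after the start, GRCm38.p6) were found for 76 of the nuclear symbols, as 81 windows. The letters GCGCATGC were searched for NRF1 and CCGGAAG for ETS factors, on both strands. GCGCATGC was in 14.8% of the OXPHOS windows and in 2.71% of all 32851 windows, and CCGGAAG in 23.5% and 8.86%. For the nuclear genes with an unadjusted p under 0.05 there were 13 windows of 12 genes, without Uqcrq and Sdhc. Of these windows, 5 held GCGCATGC (Ndufa11, Ndufa8, Ndufa6, Uqcrc1 and Atp5k), 4 held CCGGAAG and 5 held neither, with both in Atp5k. The upstream bases of 3 of them are printed because the match lies outside the annotated gene; capitals mark the match, which in Ndufa11 is a pair overlapping on opposite strands. They span chr17:56717512-56717761 (plus strand), chr15:82354323-82354541 (minus) and chr4:40279422-40279671 (minus).
Ndufa11: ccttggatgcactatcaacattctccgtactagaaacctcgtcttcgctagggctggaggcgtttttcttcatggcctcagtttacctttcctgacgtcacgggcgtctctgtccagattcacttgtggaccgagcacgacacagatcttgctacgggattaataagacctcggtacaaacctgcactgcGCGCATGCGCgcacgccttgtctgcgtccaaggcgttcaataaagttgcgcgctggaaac
Ndufa6: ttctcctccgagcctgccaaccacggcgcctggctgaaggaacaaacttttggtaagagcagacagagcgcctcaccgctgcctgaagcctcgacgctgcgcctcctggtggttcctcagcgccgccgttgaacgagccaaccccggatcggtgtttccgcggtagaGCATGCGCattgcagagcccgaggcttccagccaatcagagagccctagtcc
Ndufb6: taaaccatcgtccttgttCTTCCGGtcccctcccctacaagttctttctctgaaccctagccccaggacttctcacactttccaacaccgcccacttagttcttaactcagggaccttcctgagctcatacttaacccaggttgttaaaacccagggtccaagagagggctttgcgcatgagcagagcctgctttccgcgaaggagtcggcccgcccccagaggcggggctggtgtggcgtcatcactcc
The matches begin 60 bases before the RefSeq start in Ndufa11, 83 in Ndufa6 and 232 in Ndufb6. For Ndufa6 the 219 bases printed stop short of that start, because bases inside the annotated gene were left out. They describe letters in these windows, and binding was not measured here.

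The mitochondrially encoded protein genes had a median level of 1360.0 FPKM and a wide range, from mt-Nd3, mt-Nd5, mt-Nd2 and mt-Nd6, at means of 186, 271, 374 and 385 FPKM, to mt-Atp6 at 4720.0. The most abundant nuclear genes, Cox6a1 and Uqcr10 (751 and 703), lay within that range. Together the mitochondrial protein genes took 5.38%, 4.41% and 4.4% of total FPKM in Con and 3.39%, 5.67% and 6.63% in Abx, so Abx held both the lowest and the highest library. That share leaves out nuclear copies of 7 of these genes, described below. The copies took 2.21%, 1.85% and 2.25% in Con and 3.55%, 2.97% and 0.26% in Abx. Abx 1, with the lowest share of the genes, thus had the highest of the copies, and Abx 3 the reverse. Of the 13 mitochondrial protein genes, 11 were higher and 2 lower in Abx. mt-Nd2, a proton-pumping subunit of complex I, was at 292, 222 and 273 FPKM among Con libraries, and the Abx values were 515, 601 and 343 FPKM, without overlap (log2 difference 0.86 ± 0.26, adjusted p = 0.212). mt-Nd4, another of these, was at 738, 753 and 851 FPKM in Abx libraries 1 to 3, compared with 563, 614 and 537 FPKM in the 3 Con libraries, also without overlap (0.45 ± 0.17, adjusted p = 0.341). mt-Cytb, the only subunit of complex III that the organelle encodes, measured 1961, 1908 and 2034 FPKM in the Con group, against 2255, 2915 and 2187 FPKM in the Abx group (0.31 ± 0.17, adjusted p = 0.591). The groups overlapped for the complex I subunits mt-Nd1 (log2 difference 0.07 ± 0.19), mt-Nd3 (0.38 ± 0.40), mt-Nd5 (0.18 ± 0.22) and mt-Nd6 (0.38 ± 0.27) and for the complex V subunit mt-Atp8 (0.33 ± 0.42).

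The genes from mt-Co2 to mt-Co3 on the mitochondrial genome varied widely between libraries of the same group. mt-Co2, a catalytic subunit of complex IV, had 1008, 2383 and 2197 FPKM in control libraries and 839, 3416 and 3678 FPKM in those of the Abx group. For mt-Atp6, the proton channel subunit of complex V, the Con values were 7325, 3454 and 3249 FPKM, and the Abx values were 1924, 5733 and 6620.2 FPKM. Con 1 and Abx 1 were the lowest libraries of their groups for mt-Co2, whereas Con 1 was the highest of all for mt-Atp6. A stretch of chromosome 1 in GRCm38 (chr1:24611535-24616197) carries nuclear copies of 7 mitochondrial protein genes (mt-Co1, mt-Co2, mt-Atp6, mt-Co3, mt-Nd3, mt-Nd4l and mt-Nd4), each listed in the files as a gene of its own. No listed copy was found for mt-Atp8, which lies between mt-Co2 and mt-Atp6 on the mitochondrial genome. Whether the stretch holds its sequence too was not tested. The copies summed to 9927, 7816 and 9459 FPKM in Con, against 15890.0, 14550.0 and 1120.0 FPKM in Abx, so Abx 3 stood apart. The copies are identical, or nearly so, to the mitochondrial genes in the reference transcripts, and reads cannot be divided between identical sequences. mt-Co2 and Gm28661 were the same at all 681 bases compared, of which the 41 from base 321 on are shown for both. mt-Nd3 and Gm28438 differed at 1 of 345 bases (T3C, counted from the first base of mt-Nd3), and mt-Co1 and Gm29216 at 6 of 492, with capitals on the bases that differ.
mt-Co2: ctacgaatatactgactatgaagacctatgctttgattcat
Gm28661: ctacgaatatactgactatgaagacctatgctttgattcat
mt-Nd3: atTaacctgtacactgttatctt
Gm28438: atCaacctgtacactgttatctt
mt-Co1: ggTCtAAcCggaAttgttttatc
Gm29216: ggATtGGcAggaTttgttttatc

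The share of the signal that the files gave to the nuclear copy moved between libraries. For mt-Co2, with each copy added to its gene by length, the copy held 79.3%, 42.2% and 49.9% of the sum in Con and 83.2%, 47.4% and 5.47% in Abx. In Abx 3 the copies held 2.07% to 5.75% of the sum for all 7 genes. The ratio of the highest to the lowest library was smaller for the summed values than for the mitochondrial values alone in all 7 genes, though little so for mt-Nd3 (3.06 against 3.21, with the SE of its log2 difference at 0.43 against 0.40). For mt-Co2 the sums were 4866, 4124 and 4387 FPKM in Con, against 4993, 6490.0 and 3891 FPKM in Abx, and that ratio was 1.67, against 4.38 without the copy. It was 1.83 against 3.81 for mt-Atp6 and 1.57 against 3.04 for mt-Co3. With the copies added, an alternative chosen after seeing the data, the log2 differences were 0.17 ± 0.20 for mt-Co2 (0.33 ± 0.60 without), 0.21 ± 0.23 for mt-Atp6 (-0.06 ± 0.51 without), 0.06 ± 0.21 for mt-Co3 (-0.26 ± 0.41 without) and 0.39 ± 0.15 for mt-Nd4 (0.45 ± 0.17 without). The sign of mt-Atp6 and mt-Co3 therefore turned with the treatment of the copies. mt-Nd2 has no copy in this stretch, and the copy found for it elsewhere, Gm13339, was at a mean of 5.04 FPKM.

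**Figure D4:**
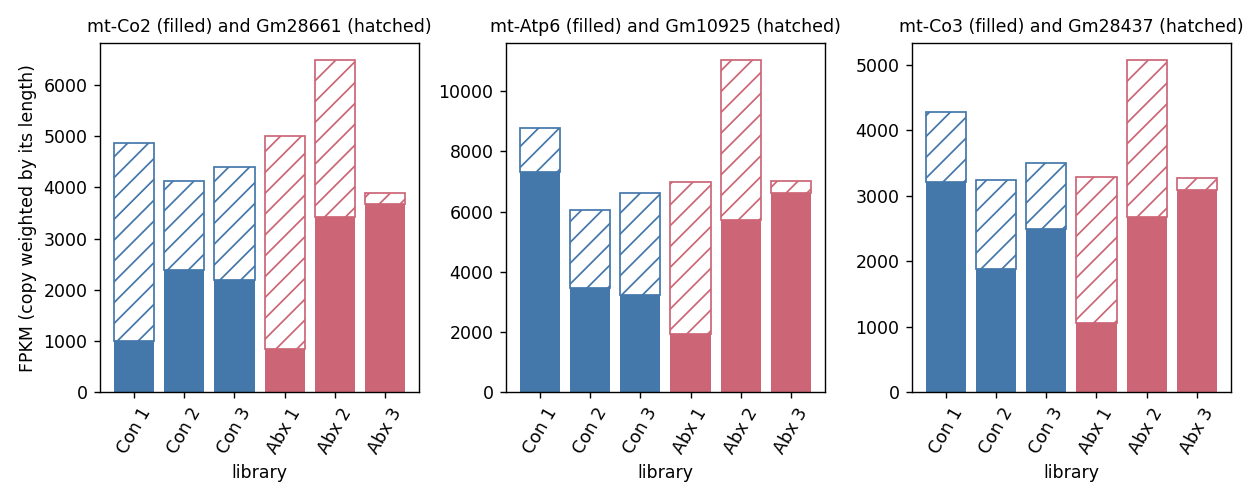
FPKM of mt-Co2, mt-Atp6 and mt-Co3 (filled) and of their nuclear copies on chromosome 1, weighted by length (hatched), in each library, with Con in blue and Abx in red. The filled parts of mt-Co2 differ 4.38 times between libraries and the whole bars 1.67 times.

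Both mitochondrial ribosomal RNAs had higher FPKM in Abx. Whether values from an oligo-dT kit follow the amount of rRNA was not tested. mt-Rnr2, the 16S rRNA of the large mitochondrial ribosomal subunit, was at 8449.6, 9368 and 7428 FPKM in Abx libraries 1 to 3, compared with 5404, 5183 and 5457 FPKM in the 3 Con libraries, with a log2 difference of 0.65 ± 0.16 and an adjusted p of 0.130. mt-Rnr1, the 12S rRNA of the small subunit, measured 2712, 2594 and 2543 FPKM in the Con group, against 3576, 4509.9 and 3192 FPKM in the Abx group (0.51 ± 0.18, adjusted p = 0.304). The Con libraries were nearly equal and every Abx library lay above them. As a share of total FPKM, the rRNAs took 1.81%, 1.84% and 1.9% in Con and 2.68%, 2.84% and 2.46% in Abx. They are transcribed from the same strand as most of the protein genes, whose share did not separate the groups.

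The transfer RNAs had the largest differences of the OXPHOS genes in both directions, with a class median of 0.11. The 5 that were higher at an unadjusted p under 0.05 lay in a run along the genome. Transfer RNA values were low and variable. Their median level was 16.6 FPKM and the median SE of their log2 differences was 0.70, against 1360.0 FPKM and 0.26 for the mitochondrial protein genes. The genes mt-Tq, mt-Tm, mt-Nd2, mt-Tw, mt-Ta and mt-Tn are neighbours in this order (chrM:3772-5159), and all 6 had an unadjusted p under 0.05 and were higher in Abx without overlap. mt-Tq, the glutamine tRNA, had 25.7, 3.95 and 2.74 FPKM in control libraries and 87.5, 70.4 and 45.2 FPKM in those of the Abx group (log2 difference 3.07 ± 0.76, adjusted p = 0.141). mt-Tm, the methionine tRNA, was at 18.6, 3.63 and 4.05 FPKM among Con libraries, and the Abx values were 96, 35.5 and 37.6 FPKM (2.74 ± 0.70, adjusted p = 0.151). mt-Tw, the tryptophan tRNA, was at 16.8, 84.8 and 26.9 FPKM in Abx libraries 1 to 3, compared with 11.1, 0.13 and 0.79 FPKM in the 3 Con libraries (3.59 ± 1.05, adjusted p = 0.203). In these 3 genes Con 1 was the highest Con library. The alanine tRNA mt-Ta (1.51 ± 0.48) and the asparagine tRNA mt-Tn (1.0 ± 0.43) had smaller differences. The next tRNAs in line, mt-Tc and mt-Ty, had log2 differences of 0.60 ± 0.50 and 0.73 ± 0.62, and mt-Ti before the run had 0.07 ± 1.51.

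Lower values were found for 3 tRNAs on either side of mt-Nd4l and mt-Nd4. mt-Tr, the arginine tRNA, measured 9.05, 2.77 and 8.05 FPKM in the Con group, against 0, 0.27 and 0.77 FPKM in the Abx group (adjusted p = 0.177). mt-Th, the histidine tRNA, had 1.53, 8.77 and 9.45 FPKM in control libraries and 0.06, 0.02 and 0.49 FPKM in those of the Abx group (log2 difference -2.44 ± 0.72, adjusted p = 0.203). mt-Tl2, a leucine tRNA, was at 16.8, 12.1 and 9 FPKM in Con and listed at 0 in all 3 Abx libraries, and its adjusted p of 0.0911 was the smallest of all OXPHOS genes. The groups did not overlap in any of the 3, while the log2 differences of mt-Nd4l and mt-Nd4 between them were 0.45 ± 0.24 and 0.45 ± 0.17. mt-Ts2, between mt-Th and mt-Tl2, was at 0 to 0.39 FPKM and was not tested. The search for nuclear copies left out the transfer RNAs. No copy was therefore sought for mt-Tr, whose neighbours mt-Nd3 and mt-Nd4l both have one on chromosome 1. The 8 tRNAs with an unadjusted p under 0.05 are 67 to 71 bases long, which is short for a library of random fragments, and their reads can come from longer transcripts that span them, on either strand. The printed sequences are the 2 tRNAs with the largest fitted difference upward after mt-Tw, and mt-Tl2, from the GENCODE transcripts at chrM:3772-3842 (minus strand), chrM:3845-3913 (plus) and chrM:11671-11741 (plus).
mt-Tq: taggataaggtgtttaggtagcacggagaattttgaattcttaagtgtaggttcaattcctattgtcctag
mt-Tm: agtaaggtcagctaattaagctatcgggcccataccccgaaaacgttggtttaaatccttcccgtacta
mt-Tl2: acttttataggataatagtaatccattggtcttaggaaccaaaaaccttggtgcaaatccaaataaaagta

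**Figure D5:**
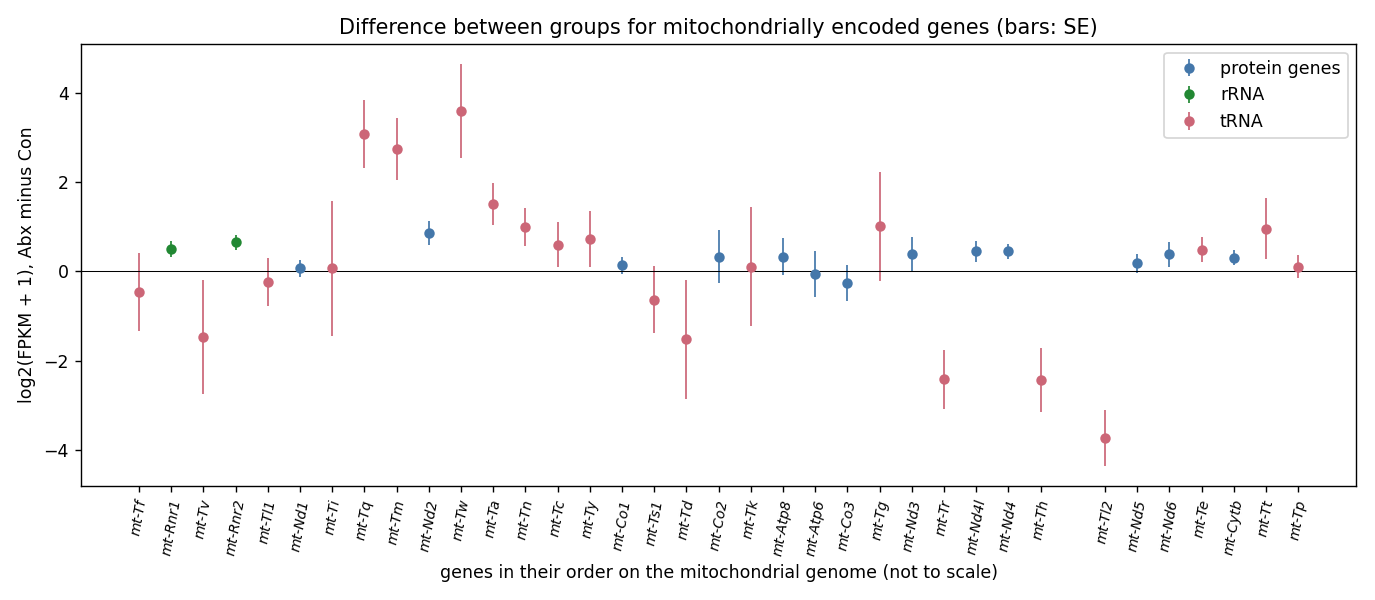
Log2 difference of FPKM + 1, Abx minus Con, with its SE, for the mitochondrially encoded genes tested, in their order on the genome. The run from mt-Tq to mt-Tn lies above 0, and mt-Tr, mt-Th and mt-Tl2 lie below; the point of mt-Tl2 rests on the 1 FPKM added to Abx values listed at 0.

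The genes that work beside the complexes moved less evenly. Of 7 tested electron carriers and their enzymes, 3 were higher and 4 lower. The somatic cytochrome c, Cycs, was at 133, 93.5 and 97.0 FPKM among Con libraries, and the Abx values were 191, 225 and 197 FPKM (log2 difference 0.93 ± 0.23, adjusted p = 0.141). Etfdh, which passes electrons from the electron transfer flavoprotein to ubiquinone, had 14.1, 22.6 and 7.6 FPKM in control libraries and 4.92, 2.35 and 7.42 FPKM in those of the Abx group, without overlap (-1.40 ± 0.70, adjusted p = 0.537). Of 35 tested assembly factors outside complex I's Ndufaf genes, 13 were higher and 22 lower with a median of -0.23, and 1 was under an unadjusted p of 0.05 in each direction (Coa3, 1.04 ± 0.36, and Coa4, -1.72 ± 0.45). Of 16 tested genes of mitochondrial DNA and its transcription, 10 were higher and 6 lower. The transcription factor Tfb2m was at 23.9, 19.5 and 25.0 FPKM in Abx libraries 1 to 3, compared with 3.89, 7.78 and 0.04 FPKM in the 3 Con libraries (2.74 ± 0.87, adjusted p = 0.252). The RNA-binding protein Slirp measured 4.82, 9.75 and 9.74 FPKM in the Con group, against 22.8, 31.8 and 15.4 FPKM in the Abx group (1.42 ± 0.54, adjusted p = 0.372).

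Among 7 tested regulators of nuclear OXPHOS genes, 2 were higher and 5 lower, with a median of -0.64 and none under an unadjusted p of 0.05. The 16 genes of the tricarboxylic acid cycle and pyruvate dehydrogenase had 6 higher and 10 lower, with a median of -0.14 and none under that p. Fumarase, Fh1, had the smallest p of that list, at 42.4, 42.5 and 29.3 FPKM in control libraries and 0.30, 15.7 and 22 FPKM in those of the Abx group (-2.28 ± 1.04, adjusted p = 0.478). Of 9 tested genes of a list of carriers, porins, uncoupling proteins, the ATPase inhibitor and the superoxide dismutase Sod2, 6 were higher and 3 lower. The ATPase inhibitor Atpif1 was at 151, 146 and 97.0 FPKM among Con libraries, and the Abx values were 202, 219.7 and 185 FPKM (0.64 ± 0.25, adjusted p = 0.377). The phosphate carrier Slc25a3 was at 0.19, 0.58 and 0.14 FPKM in Abx libraries 1 to 3, compared with 2.88, 7.78 and 11.8 FPKM in the 3 Con libraries (-2.56 ± 0.68, adjusted p = 0.164). No gene of these lists was called.

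Near-identical copies also bear on the nuclear genes. A search of the reference transcripts at 95% identity or more found such a copy for 25 nuclear OXPHOS genes, and for 16 of them a copy with a mean of at least 5 FPKM. The copy exceeded the gene for Ndufa12 (98.3 FPKM, against 181 for Ndufa12-ps), Ndufab1 (12.3, against 28.3 for Gm4459), Atp5g1 (51.4, against 238 for Gm10039), Atp5l (31.7, against 152 for Gm10221) and Atp5md (89.5, against 112 for Gm14539). The values of these genes, and the order of the c ring genes above, are therefore uncertain. Ndufa11, Atp5o and Sdhc had no such copy by this search.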

How the data were processed

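SMART-seq was performed on 6 libraries of lung ILC2s. The authors mapped trimmed reads with HISAT2, computed FPKM per gene with StringTie and deposited the FPKM values, with no read counts, so their DESeq2 comparison was not repeated. Their methods name a human annotation, whereas the identifiers are those of mouse. The submitters' processing notes also name Bowtie 0.12.2 and the builds mm 8 and mm 9, without a role. Positions were taken by identifier from GENCODE M21 (GRCm38), which gives another symbol for 7 of the genes.

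From the deposited FPKM values, log2(FPKM + 1) was tested with limma 3.58.1 in R 4.3.3 (lmFit, eBayes with trend), two-sided and without covariates, on genes at 1 FPKM or more in at least 3 libraries, with Benjamini-Hochberg adjustment over all of them. Fold changes are on that scale and understate those of low genes. The model was tested on simulated data with differences larger than those of nearly all OXPHOS genes. That does not show how well smaller differences are found. Genes that did not pass the filter were given an exact permutation test. The OXPHOS genes, the lists and the markers were chosen with earlier results of these data known. Named genes were the mitochondrial protein genes and rRNAs, the Sdh genes, fixed isoform pairs, and in each nuclear class the most abundant gene, those with the 2 largest differences in each direction and those with an unadjusted p under 0.05, with the smallest p in each direction of further lists; not all of these are printed. Transfer RNAs, Cox5a, Slirp, Ndufs1, Atp5a1 and some other genes fall outside this rule and were named after their values were seen. Copies were sought with blastn 2.17.0 (same strand, at least 100 bases and 50% of the copy), but not for transfer RNAs or pseudogene entries. Pseudocounts, scalings, filters, left-out libraries, a replicate block and added nuclear copies were tried as alternatives.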

Additional observations from a re-analysis of the deposited data

How the results depend on the processing

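The number of OXPHOS genes at an unadjusted p under 0.05 was 26 (21 higher and 5 lower in Abx). It was 17 (13 and 4) with quantile normalization and 16 (16 and 0) with a mean of at least 50 FPKM, a filter under which 1 OXPHOS gene was called. Leaving out 1 library gave 16 to 30, with 16 without Con replicate 3. Under every alternative the percentage higher among OXPHOS genes was above that among all genes tested, from 8.82% against 3.53% to 18.4% against 5.62%. At a mean of at least 50 FPKM the percentage among all genes tested was itself well above that of the main fit, as given above. The median of the nuclear subunits was 0.22 to 0.43 over the alternatives. That of the mitochondrial protein genes was 0.17 to 0.36 when 1 library was left out, with 0.23 without Con replicate 3 and 0.17 without Abx replicate 2. TPM scaling and scaling to nuclear genes moved the median of all genes from -0.06 to -0.18 and -0.17, while the nuclear subunits were then at 0.23 and 0.26 and the mitochondrial protein genes at 0.25 and 0.27. The difference in the share of total FPKM held by mitochondrial protein genes, 0.505 percentage points, was -0.193 to 1.42 with 1 library left out, negative without Abx replicate 3. The nuclear copies were not added to this share. Of the 26 genes with an unadjusted p under 0.05, 11 kept it under each alternative that tested them. Of these, Ndufa11, Ndufb6, Atp5o, Atp5j, mt-Nd2 and mt-Ta were tested under all 19, whereas mt-Tq, mt-Tm, mt-Tw, mt-Tl2 and mt-Tr were not tested at a mean of at least 50 FPKM, nor mt-Tr at 5 FPKM. Same-numbered libraries did not deviate together (correlations of -0.02, -0.03 and 0.01). With 3 libraries a group this cannot show whether they were prepared in pairs. With the replicate block, 0 OXPHOS genes were called and 18 (13 higher and 5 lower) had an unadjusted p under 0.05. The causes of these changes were not tested. The unknown depth and 3 libraries a group limit what could be detected.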
